A study of Homo sapiens with 16 samples.

Results

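The genes described are 9 amino acid transporters of the cell surface, SLC7A1, SLC7A5, SLC3A2, SLC1A4, SLC1A5, SLC38A1, SLC38A2, SLC6A9 and SLC43A1, chosen by name from 19775 genes with a signal on the arrays. This list and the further gene lists below were drawn up with earlier results of these data known. Their counts beside the shares of all genes are therefore a description. Each gene was read from the probe set that carried its symbol alone and had the highest mean signal. Of the 9 genes, 8 passed the filter on dim genes, which 14038 genes passed in all. SLC6A9 did not pass it and was not tested. RNA had been measured on 16 Affymetrix U133 Plus 2.0 arrays in AML-193, HNT-34, KG1a and HL60, 4 established cell lines of acute myeloid leukaemia (AML). Each line had been given vehicle (DMSO) or 0.5 µM azacitidine (AZA) every day for 3 days and then kept without drug for 4 days. There were 2 arrays in each of the 8 groups, and both arms of every line grew in RPMI SILAC medium with light lysine and arginine. The design text ties the treatment to DNA methylation, which is not analysed here, and the title to remodelling of surface proteins, which RNA levels do not measure. The labels do not tell separate cultures from repeat arrays of 1 culture, so p-values measure the spread between these arrays, which may be technical.

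Azacitidine is a cytidine analogue that is built into DNA and RNA and traps DNA methyltransferases, so that dividing cells lose DNA methylation. Amino acid transporters sit in the plasma membrane and work as teams. SLC7A5 (LAT1) with its partner SLC3A2 (4F2hc, the heavy chain that brings LAT1 to the surface) exchanges leucine and other large neutral amino acids, partly for glutamine that SLC1A5, SLC38A1 and SLC38A2 bring in. When amino acids run short or protein folding fails, translation of the transcription factor ATF4 rises, and ATF4 with a C/EBP partner binds a composite element to switch on transporters and enzymes of amino acid synthesis. MYC, through E-boxes, is the other well known activator of several of these genes.

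Of the 9 genes, 5 held the core of this ATF4 and C/EBP element, TGATGNAA read on both strands, in a RefSeq promoter window (GRCh38.p14) of 300 bases, from 250 before to 50 after a transcription start. The genes had 16 such windows, of which 5 held the core, against 3.62% of all 35116 windows and 4.46% of 27305 genes. The stretches of 30 bases around each match are given on the strand of the gene, with the match in capitals, because the same genes are followed through the arrays.
SLC7A1, chr13:29595663-29595692: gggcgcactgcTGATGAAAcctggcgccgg
SLC3A2, chr11:62881719-62881748: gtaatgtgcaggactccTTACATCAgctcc
SLC1A4, chr2:64989381-64989410: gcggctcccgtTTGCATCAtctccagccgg
SLC1A5, chr19:46784893-46784922: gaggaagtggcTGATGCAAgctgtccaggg
SLC38A1, chr12:46266502-46266531: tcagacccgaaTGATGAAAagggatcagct
The SLC3A2 and SLC1A4 matches read on the opposite strand. The match began 97 bases before a start in SLC1A5, 7 before in SLC1A4 and 4 before in SLC38A1, and it lay 8 bases after a start in SLC7A1 and 38 after in SLC3A2. The fuller form TTGCATCA, which is itself 1 of the 4 spellings of the core, was present in SLC1A4 and SLC1A5. These are 2 of the 9 genes, against 1.08% of all genes, and 2 of the 16 windows, against 0.866% of all windows.

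The E-box CACGTG, which reads the same on both strands, was found in windows of 3 of the 9 genes, against 8.77% of 27305 genes. It was in 3 of the 16 windows, against 7.26% of all windows. These stretches are shown because they include SLC7A5 and SLC43A1, whose windows had no TGATGNAA.
SLC7A5, chr16:87869620-87869649: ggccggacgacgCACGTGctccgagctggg
SLC1A5, chr19:46787326-46787355: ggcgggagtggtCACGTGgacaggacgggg
SLC43A1, chr11:57515797-57515826: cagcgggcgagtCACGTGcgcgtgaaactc
The E-box began 130 bases before the start in SLC7A5, 112 before in SLC43A1 and 50 before in SLC1A5, where it belonged to another start than the first match. The cyclic AMP response element TGACGTCA and its core TGACGT were in 0 of the 16 windows, against 1.85% and 7.98% of all windows. The second E-box form CATGTG was in windows of SLC3A2 and SLC38A1, 2 of the 9 genes, against 13.4% of all genes. It was in 2 of the 16 windows, against 11.1% of all windows. The windows also differed in CpG content, the substrate of DNA methylation. They held from 6 CpGs, in 1 window of SLC38A1, to 49 in SLC7A1, with 44 in SLC7A5, and the median of all windows was 14. Each match is a match of letters, and binding and methylation there were not analysed.

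The 8 tested genes fell together in 2 of the 4 lines. After AZA, all 8 were lower in AML-193 and all 8 were lower in HNT-34 (limma, adjusted p under 0.05), where 20.3% and 14.8% of all genes tested were called lower. In HL60, 5 were lower, against 16% of all genes, and the other 3 were not called. In KG1a, SLC7A1 alone was lower, against 3.37% of all genes, and SLC1A4 alone was higher, against 6.56%. None of the 8 was called higher in AML-193, HNT-34 or HL60, where 20.7%, 15.4% and 25.2% of all genes were. Both AZA arrays lay below both vehicle arrays for 8 of the 8 genes in AML-193 (33.4% of all genes), 8 in HNT-34 (33.3%), 3 in KG1a (23.5%) and 7 in HL60 (28.3%). The median log2 difference of the 8 genes was -0.57 in AML-193, -1.13 in HNT-34, -0.07 in KG1a and -0.38 in HL60, whereas the median of all genes tested lay between 0.01 and 0.05. A fall of at least 2-fold was seen for 2 genes in AML-193, SLC7A5 and SLC38A2, and for 4 in HNT-34, SLC1A4, SLC1A5, SLC3A2 and SLC7A5, and for none of the 8 in KG1a or HL60. The 5 genes lower in each of AML-193, HNT-34 and HL60 were SLC7A5, SLC3A2, SLC1A5, SLC38A1 and SLC43A1, and 1.24% of all genes were called lower in those 3 lines. None of the 8 was called lower in all 4 lines, against 0.321% of all genes. On the mean of the 4 differences, all 8 were lower, against 16.5% of all genes.

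**Figure D1:**
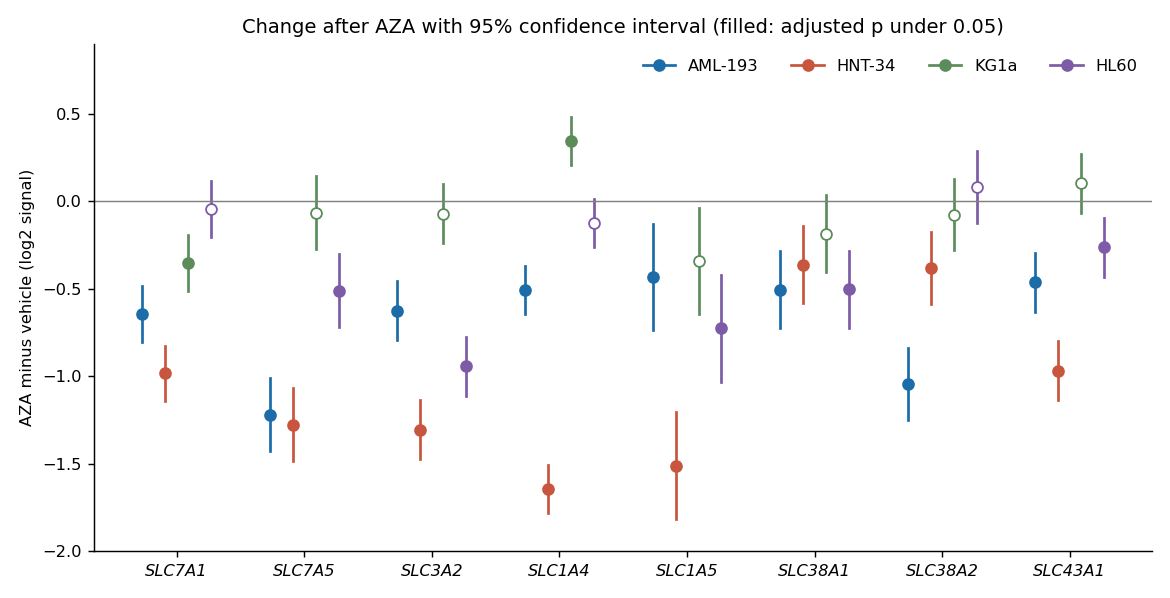
AZA minus vehicle (log2 signal) with its 95% confidence interval for the 8 tested transporters in each line; filled points had an adjusted p under 0.05 in limma. The 8 points of AML-193 and the 8 of HNT-34 all lie below 0, and SLC1A4 in KG1a (0.35) is the filled point above it.

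RNA quality differed between the arms in AML-193 and HL60. The difference between the 3′ and 5′ control probe sets of ACTB and GAPDH (3′ minus 5′, log2), which is larger in more degraded RNA, was 1.27 ± 0.463 (SD, n = 2) in AML-193 vehicle and 0.198 ± 0.0433 in AML-193 AZA. It was 0.0443 ± 0.0116 in HL60 vehicle and 0.722 ± 0.163 in HL60 AZA, and its means lay between -0.102 and 0.0587 in the 4 groups of HNT-34 and KG1a. With this signal as a covariate, 3 of the 8 genes remained called lower in AML-193, namely SLC7A5 (-1.22), SLC3A2 (-0.94) and SLC38A1 (-0.90), and 2 in HL60, namely SLC3A2 (-0.74) and SLC43A1 (-0.42). Of all genes tested, 1.12% were called lower in AML-193 and 5.66% in HL60 with this covariate. In AML-193 the values without a call were still below 0, from -0.21 for SLC43A1 to -0.72 for SLC1A5. The SE in AML-193 was larger with the covariate, 0.22 against 0.10 for SLC7A5 and 0.32 against 0.14 for SLC1A5. A call lost there does not by itself show a smaller difference. The 8 calls in HNT-34 and the 2 in KG1a were unchanged by the covariate.

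The arrays carried the marks of myeloid cells. Of 9 myeloid markers with a signal, 7 to 9 were at or above the array median in every group, although MPO averaged 5.90 in HNT-34, below the median of 6.73. Of 5 epithelial markers, EPCAM, KRT19 and CDH1 were dim in every line, while KRT18 averaged 12.7 and KRT8 8.52 in HNT-34. Of 5 fibroblast markers, COL1A1 averaged 9.29 to 9.95 and DCN was above the median in every line, and COL1A2, COL3A1 and LUM were dim. Among B cell markers, CD79A averaged 8.29 to 9.58 and PAX5 6.98 to 7.20 with vehicle, above the median in every line, and MS4A1 was dim. Among T cell markers, CD3E averaged 7.51 to 8.60 with vehicle, also above it in every line, and CD3G was dim. Markers also moved with AZA. In HNT-34, where all 8 transporters fell, the 3 tested T cell markers were called higher, against 15.4% of all genes. The summed level of the 4 T cell markers measured was 9.11 to 9.19 with vehicle and 9.68 on both AZA arrays. In the same line LYZ was higher (1.84), KRT8 was higher (0.89), KRT18 was lower (-0.42) and CD34 was lower (-1.25). In AML-193, 5 of 9 myeloid markers were called higher, against 20.7% of all genes, with MPO at 3.11. In HL60, 5 were also called higher, against 25.2% of all genes, and KRT18 was higher (1.36). With the covariate, 1 of the 9 was called higher in AML-193 (1.54% of all genes) and 3 in HL60 (9.67%). The summed level of 4 T cell markers went from 9.49 to 9.66 in KG1a vehicle to 10.6 to 10.7 in KG1a AZA, and the part of these markers in the transporter results was not tested. The pairs of replicate arrays correlated at 0.995 to 0.998. In a bulk extract, a change in the share of cells that carry an RNA and a change in the RNA per cell cannot be told apart.

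SLC7A5, the transport subunit of LAT1 and the main entry route for leucine, was 12.87 and 12.98 (log2 signal) on the vehicle arrays of AML-193 and 11.73 and 11.67 after AZA. In HNT-34 it was 13.01 and 13.07 with vehicle and 11.79 and 11.73 with AZA. The arms stood more than 1 log2 unit apart in both lines and did not overlap. The difference was -1.22 ± 0.10 (SE) in AML-193 (adjusted p = 1.5e-06, limma) and -1.28 ± 0.10 in HNT-34 (adjusted p = 4.4e-07, limma), falls of 2.33-fold and 2.43-fold. In HL60 the vehicle arrays were 11.79 and 11.82 and the AZA arrays 11.29 and 11.30, a difference of -0.51 ± 0.10 (adjusted p = 0.0010, limma). That call was not kept with the control signal as a covariate (-0.51, adjusted p = 0.0541). In KG1a the vehicle arrays, 11.78 and 11.44, lay on either side of AZA array 1 at 11.48 and of AZA array 2 at 11.61. The KG1a difference of -0.07 had a 95% interval from -0.28 to 0.14.

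SLC3A2, the heavy chain shared by LAT1 and the cystine exchanger, was 11.81 and 11.75 in HNT-34 vehicle and 10.45 and 10.49 in HNT-34 AZA. In HL60 it was 11.10 and 11.17 with vehicle and 10.21 and 10.18 with AZA. These were its widest gaps, -1.31 ± 0.08 in HNT-34 (adjusted p = 4.5e-08, limma) and -0.94 ± 0.08 in HL60 (adjusted p = 1.5e-06, limma). In AML-193 the vehicle arrays were 10.88 and 11.09 and the AZA arrays 10.38 and 10.35, a difference of -0.63 ± 0.08 (adjusted p = 5.9e-05, limma). In KG1a the vehicle arrays were 10.59 and 10.70 and the AZA arrays 10.55 and 10.60, so the arms overlapped and the interval ran from -0.24 to 0.10. The intervals of SLC7A5 and SLC3A2 did not overlap in AML-193, where they ran from -1.43 to -1.01 and from -0.80 to -0.46, or in HL60, where they ran from -0.72 to -0.30 and from -1.11 to -0.77. These are the 2 lines with unlike control signals. With the covariate the values were -1.22 ± 0.22 and -0.94 ± 0.14 (SE) in AML-193. In HL60 they were -0.51 ± 0.16 and -0.74 ± 0.10, and the ranges of 1 SE overlapped in both lines. The difference between the 2 genes was itself not tested.

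SLC1A5 (ASCT2), a sodium-dependent exchanger that brings in glutamine, was 11.65 and 11.92 in HNT-34 vehicle and 10.30 and 10.24 in HNT-34 AZA. The fall of 2.85-fold (-1.51 ± 0.14, adjusted p = 3.1e-06, limma) was several times the gap between the vehicle arrays. In HL60 it was 11.90 and 11.82 with vehicle and 11.12 and 11.15 with AZA, a difference of -0.73 ± 0.14 (adjusted p = 0.0012, limma), and -0.55 (adjusted p = 0.139) with the covariate. In AML-193 the vehicle arrays were 11.17 and 11.56 and the AZA arrays 11.01 and 10.85. That smaller difference of -0.43 ± 0.14 (adjusted p = 0.0262, limma) rested on vehicle replicate 2 and AZA replicate 2. It was -0.23 (adjusted p = 0.244) without the first of them and -0.35 (adjusted p = 0.152) without the second. In KG1a the vehicle arrays were 11.52 and 11.14 and the AZA arrays 10.94 and 11.04, and the difference of -0.34 was not called (adjusted p = 0.163). It was -0.53 (adjusted p = 0.04996) without vehicle replicate 2 of KG1a and -0.15 (adjusted p = 0.667) without vehicle replicate 1.

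SLC1A4 (ASCT1), which exchanges alanine, serine, cysteine and threonine, moved in opposite directions in HNT-34 and KG1a. In HNT-34 it went from 10.49 and 10.54 with vehicle to 8.86 and 8.87 with AZA, and in KG1a from 9.71 and 9.70 to 10.09 and 10.01. The arms did not overlap in either line. The fall in HNT-34 was 3.13-fold (-1.65 ± 0.06, adjusted p = 7.3e-10, limma), the largest change of the 8 genes in the 4 lines, and the rise in KG1a was 1.27-fold (0.35 ± 0.06, adjusted p = 0.0034, limma). The KG1a call was not kept without AZA replicate 1 (0.31, adjusted p = 0.0537). AML-193 went from 11.66 and 11.64 to 11.16 and 11.14 (-0.51 ± 0.06, adjusted p = 6.4e-05, limma), and HL60 from 11.15 and 11.11 to 11.04 and 10.96 (-0.13, adjusted p = 0.137). With the covariate the AML-193 value was -0.42 (adjusted p = 0.136, limma).

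SLC38A2 (SNAT2), the sodium-coupled carrier of small neutral amino acids that cells induce on starvation, was 13.45 and 13.27 in AML-193 vehicle and 12.36 and 12.27 in AML-193 AZA. The fall was 2.07-fold there (-1.05 ± 0.09, adjusted p = 4.7e-06, limma), and the value was -0.65 (adjusted p = 0.0801) with the covariate. In HNT-34 it went from 13.35 and 13.48 to 12.96 and 13.10, a difference of -0.38 ± 0.09 (adjusted p = 0.0075, limma). That call was lost without vehicle replicate 2 (adjusted p = 0.0769) or AZA replicate 1 (adjusted p = 0.0825) of HNT-34. In KG1a the vehicle arrays were 13.22 and 12.97 and the AZA arrays 13.03 and 13.01. In HL60 they were 13.07 and 13.06 with vehicle and 13.18 and 13.12 with AZA. Neither line was called, with 95% intervals from -0.28 to 0.13 and from -0.12 to 0.29.

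SLC38A1 (SNAT1), the related carrier of glutamine, was lower in AML-193, HNT-34 and HL60. AML-193 went from 12.35 and 12.55 to 11.96 and 11.93 (-0.51 ± 0.10, adjusted p = 0.0017, limma). HNT-34 went from 13.18 and 13.19 to 12.83 and 12.82 (-0.36 ± 0.10, adjusted p = 0.0153, limma). HL60 went from 12.57 and 12.56 to 11.88 and 12.24 (-0.50 ± 0.10, adjusted p = 0.0015, limma). The 2 AZA arrays of HL60 were the least alike of these pairs, and the HL60 value was -0.32 without AZA replicate 1, still called. With the covariate it was -0.25 (adjusted p = 0.259). In HNT-34 the arrays agreed within 0.01 and the call still ended when any 1 of its 4 arrays was left out (adjusted p from 0.0588 to 0.0763), with values from -0.37 to -0.36. KG1a went from 12.52 and 12.48 to 12.27 and 12.36, below vehicle on both arrays but not called (-0.19, adjusted p = 0.312).

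SLC7A1 (CAT1), the carrier of arginine and lysine, was 13.27 and 13.30 in HNT-34 vehicle and 12.29 and 12.32 in HNT-34 AZA, a fall of 1.98-fold (-0.98 ± 0.07, adjusted p = 3.8e-07, limma). In AML-193 it went from 13.29 and 13.25 to 12.64 and 12.61 (-0.65 ± 0.07, adjusted p = 3.1e-05, limma). In KG1a it went from 12.81 and 12.62 to 12.32 and 12.40 (-0.35 ± 0.07, adjusted p = 0.0076, limma). SLC7A1 was the only gene of the 8 called lower in KG1a, and the call was lost without vehicle replicate 1 (-0.26, adjusted p = 0.0819) or AZA replicate 1 (-0.31, adjusted p = 0.0877) of that line. HL60 was 12.93 and 12.92 with vehicle and 12.90 and 12.85 with AZA, a difference of -0.05 with a 95% interval from -0.20 to 0.11. In the fit over all probe sets, the second by brightness was 0.13 in HL60 and not called. The third was lower there (-0.45, adjusted p = 0.0200, limma), and with the covariate it was -0.11 and not called.

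SLC43A1 (LAT3), a facilitative carrier of branched-chain and aromatic amino acids that needs no heavy chain, went from 10.88 and 10.97 to 9.98 and 9.93 in HNT-34, a fall of 1.96-fold (-0.97 ± 0.08, adjusted p = 8.1e-07, limma). In AML-193 it went from 11.55 and 11.47 to 11.08 and 11.01 (-0.46 ± 0.08, adjusted p = 0.00052, limma), and with the covariate the value was -0.21 (adjusted p = 0.527). In HL60 it went from 11.75 and 11.67 to 11.49 and 11.40 (-0.26 ± 0.08, adjusted p = 0.0163, limma). The HL60 call was lost without vehicle replicate 1 (adjusted p = 0.111) or AZA replicate 2 (adjusted p = 0.0839). In KG1a the vehicle arrays were 11.08 and 10.91 and the AZA arrays 11.07 and 11.13, which overlapped.

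SLC6A9 (GLYT1), the glycine transporter, was read by a single probe set that lay between 4.87 and 5.66 on all 16 arrays, below the array median of 6.73. Its mean stood at the percentile 13.7 of the genes measured. In a fit with no filter on dim genes it was not called in any line, and its largest difference was 0.37 in HNT-34 (adjusted p = 0.0710). Near this level the array compresses differences, so no change was detectable, which does not show that there was none.

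**Figure D2:**
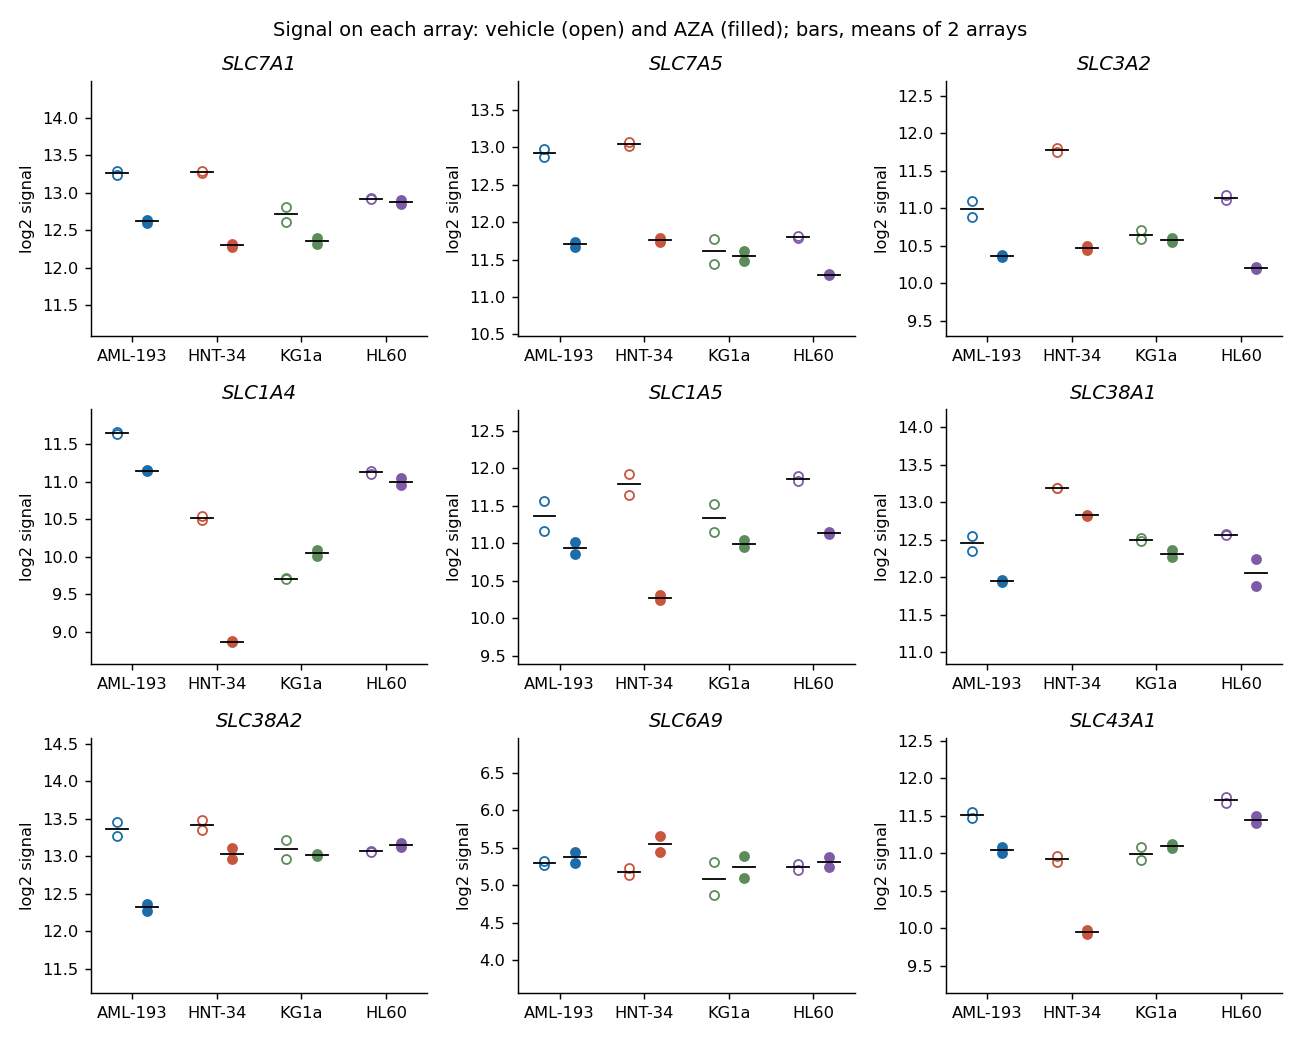
Log2 signal of each of the 9 transporters on all 16 arrays, by line; open points are vehicle, filled points AZA, and bars the mean of the 2 arrays of a group. Each panel spans 3.4 log2 units, and SLC1A4 in HNT-34 drops from 10.49 and 10.54 to 8.86 and 8.87 while SLC6A9 stays between 4.87 and 5.66.

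The vehicle groups differed for 8 of the 8 tested genes by a moderated F-test, as did 85.1% of all genes tested. The AML-193 vehicle arrays stand apart in RNA quality (control signal 1.27), and its part in the orders was not tested. SLC7A5 was highest in HNT-34 (13.04 ± 0.05, SD, n = 2) and AML-193 (12.92 ± 0.08), which did not differ from each other beyond their spread (adjusted p = 0.295, limma). Both stood more than 1 log2 unit above HL60 (11.80 ± 0.02) and KG1a (11.61 ± 0.24), and the last pair did not differ either (adjusted p = 0.101, limma). SLC7A1 and SLC38A2 had the same upper pair in the probe sets used, with HNT-34 and AML-193 not apart (adjusted p = 0.874 and 0.640, limma). Below that pair, SLC7A1 was higher in HL60 than in KG1a (adjusted p = 0.0250, limma), and SLC38A2 in KG1a and HL60 did not differ (adjusted p = 0.823, limma). Other probe sets gave other orders. Both further ones of SLC38A2 put AML-193 lowest (12.70 and 12.36) and HNT-34 highest (13.20 and 12.85). The second of SLC7A1 by brightness put HNT-34 (10.26) below AML-193 (11.77) and HL60 (10.53). SLC3A2 was highest in HNT-34 (11.78 ± 0.04), followed by HL60 (11.14 ± 0.05) and AML-193 (10.99 ± 0.15), which did not differ (adjusted p = 0.107, limma), and it was lowest in KG1a (10.65 ± 0.08).

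The neutral exchangers were ordered in other ways. SLC1A4 had 4 separate levels, from AML-193 (11.65 ± 0.01) through HL60 (11.13 ± 0.03) and HNT-34 (10.52 ± 0.03) to KG1a (9.71 ± 0.01). The means of the 3 brightest probe sets had this order, and the fourth by brightness put AML-193 lowest (8.21, against 8.32 in KG1a, 8.83 in HNT-34 and 9.21 in HL60). A dimmer probe set of SLC7A1 (5.89) and one of SLC38A1 (7.89) also put AML-193 lowest. SLC1A5 was higher in HL60 and HNT-34, which did not differ (adjusted p = 0.680, limma), than in AML-193 and KG1a, which did not differ (adjusted p = 0.862, limma). SLC38A1 stood highest in HNT-34 (13.18 ± 0.01), and the other three lines, between 12.45 and 12.56, could not be ordered. SLC43A1 was highest in HL60 (11.71 ± 0.06), then AML-193 (11.51 ± 0.06, adjusted p = 0.0390, limma), and lower in KG1a and HNT-34, which did not differ (adjusted p = 0.497, limma). KG1a was therefore the lowest line for SLC7A1, SLC7A5, SLC3A2, SLC1A4 and SLC1A5 by its mean, with SLC7A5 and SLC1A5 not apart from the next line.

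The size of the AZA effect differed between lines for 7 of the 8 genes by a moderated F-test, against 57.1% of all genes tested. The exception was SLC38A1 (adjusted p = 0.183, limma), whose 6 differences between pairs of lines were all short of the threshold. For SLC1A4 and SLC3A2 all 6 pairs of lines differed, for SLC7A1, SLC7A5 and SLC43A1 5 pairs, for SLC38A2 4 and for SLC1A5 3. HNT-34 minus KG1a was called for 6 of the 8 genes (15.2% of all genes) and was largest for SLC1A4 (-1.99 ± 0.09, adjusted p = 1.6e-08, limma). HNT-34 minus HL60 was called for 7 (35.8% of all genes) and AML-193 minus HNT-34 for 6 (31.5% of all genes). AML-193 minus KG1a, AML-193 minus HL60 and KG1a minus HL60 were called for 5 each (24.4%, 47.3% and 27.0% of all genes). For SLC38A2 the fall was larger in AML-193 than in HNT-34 (-0.66 ± 0.13, adjusted p = 0.0023, limma), whereas for SLC7A1, SLC3A2, SLC1A4, SLC1A5 and SLC43A1 it was larger in HNT-34. For SLC7A5 the difference between AML-193 and HNT-34 was 0.06 ± 0.14 (adjusted p = 0.787, limma), with a 95% interval from -0.24 to 0.35. These contrasts are given without the covariate, and the arms of AML-193 and HL60 differed in RNA quality. Every pair other than HNT-34 and KG1a includes a line of this kind. With the covariate, the AML-193 value went from -1.05 to -0.65 for SLC38A2 and from -0.63 to -0.94 for SLC3A2, and it stayed at -1.22 for SLC7A5.

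The 9 genes had 22 probe sets of their own symbol, and 5 of them had a single one. For SLC38A2 the 3 probe sets gave like values, from -1.05 to -0.86 in AML-193 and from -0.48 to -0.38 in HNT-34, although 2 of the 3 are of a type that can bind other transcripts. The 3 brightest probe sets of SLC1A4 ran from -1.65 to -1.47 in HNT-34 and from -0.51 to -0.27 in AML-193. In KG1a they were 0.35, 0.31 and 0.19, and in the fit over all probe sets the last 2 were not called (adjusted p = 0.0559 and 0.347, limma). Some dimmer probe sets had other values in the lines where RNA quality differed, above 0 in AML-193 and further below 0 than the brightest in HL60. The fourth by brightness for SLC1A4 was higher in AML-193 (0.41, adjusted p = 0.0190, limma) and lower in HL60 (-0.93, adjusted p = 5.8e-05, limma). The third for SLC38A1 was 0.15 in AML-193 and -1.17 in HL60, and the fourth for SLC7A1, whose mean of 6.57 lay below the array median, was 0.49 and -1.10. The dimmest probe set of SLC1A4 had the opposite pattern, with -1.23 in AML-193 and 0.29 in HL60. The use of the covariate on these further probe sets was chosen after seeing the data, and with it the first 3 became -0.20 and -0.55 for SLC1A4, -0.20 and -0.95 for SLC38A1, and -0.35 and -0.57 for SLC7A1. The part of RNA quality in these probe sets was not tested further. In HNT-34, where the arms had like control signals, the same 3 probe sets were lower (-0.61, -0.46 and -0.94).

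**Figure D3:**
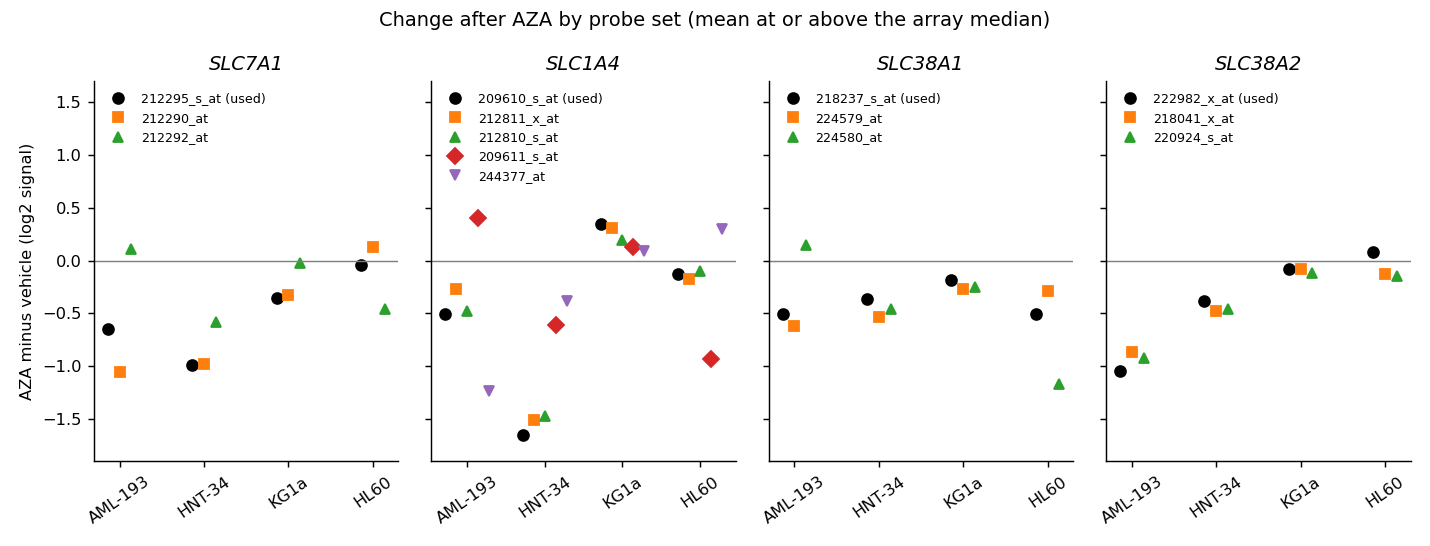
AZA minus vehicle (log2 signal) for each single-symbol probe set of SLC7A1, SLC1A4, SLC38A1 and SLC38A2 whose mean reached the array median, by line. The probe sets of SLC38A2 cluster in each line, while in AML-193 those of SLC1A4 run from -1.23 to 0.41.

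Other amino acid carriers changed in both directions. Of 44 further plasma membrane and lysosomal carriers, 28 were tested, and 5 were lower and 8 higher in AML-193, 5 and 4 in HNT-34, 3 and 2 in KG1a, and 5 and 8 in HL60. They are to be read against the shares of all genes, which were 20.3% lower and 20.7% higher in AML-193, 14.8% and 15.4% in HNT-34, 3.37% and 6.56% in KG1a, and 16% and 25.2% in HL60. Their median log2 differences were 0.13, 0.08, 0.01 and 0.07 in that order. With the covariate, 1 was lower and 0 higher in AML-193, against 1.12% and 1.54% of all genes. In HL60, 2 were lower and 6 higher with the covariate, against 5.66% and 9.67% of all genes. In AML-193, 2 were lower without vehicle replicate 1 or AZA replicate 2, and 5 were higher without vehicle replicate 1 or either AZA array. In HNT-34, 3 were lower without vehicle replicate 2 or AZA replicate 2. In KG1a, 1 was higher without any 1 of the 16 arrays other than vehicle replicate 2 of KG1a, and without that array 3 were higher. SLC7A11 (xCT), the cystine and glutamate exchanger that also pairs with SLC3A2, fell in all 4 lines. It went from 11.02 and 11.21 to 7.91 and 7.98 in HNT-34, a difference of -3.17 ± 0.10 (adjusted p = 8.4e-11, limma). It was -1.63 in AML-193, -1.61 in HL60 and -0.70 in KG1a, with the same SE and a call in each, and with the covariate it was called at -1.45 in AML-193 and -1.73 in HL60.

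Among the 28 other carriers, calls of both signs were found. SLC7A7, a light chain that exports cationic amino acids with SLC3A2, was higher in HNT-34 (1.06 ± 0.16) and AML-193 (0.51 ± 0.16, adjusted p = 0.0197, limma), and SLC7A8 (LAT2) was higher in AML-193 (0.62 ± 0.10). Neither AML-193 call was kept with the covariate (0.30, adjusted p = 0.734, and 0.66, adjusted p = 0.167). The lysosomal cystine exporter CTNS was higher in KG1a (0.82 ± 0.10). The proton-coupled carriers SLC36A4 (0.88 ± 0.07) and SLC36A1 (0.71 ± 0.08) were higher in HL60, and SLC36A4 was lower in KG1a (-0.46 ± 0.07). The cationic carrier SLC7A2 was lower in HL60 (-0.91 ± 0.14). SLC38A5 was lower in HNT-34 (-0.52 ± 0.08), and SLC38A7 was lower in AML-193 (-0.45 ± 0.08, not called with the covariate) and higher in HL60 (0.51 ± 0.08).

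**Figure D4:**
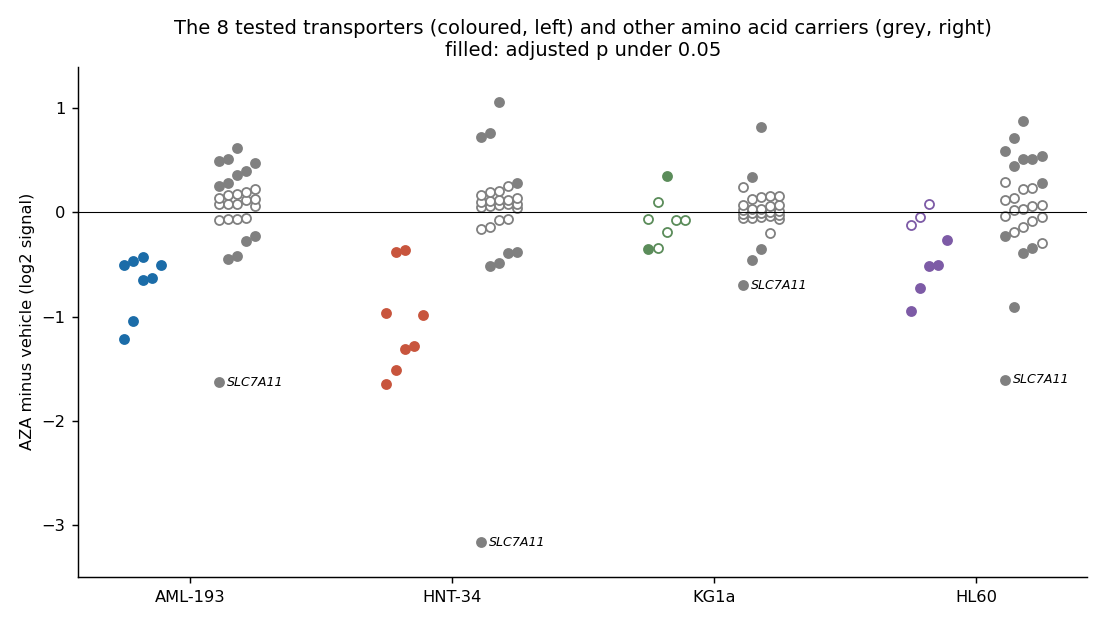
AZA minus vehicle (log2 signal) by line for the 8 tested transporters (coloured) and 28 other plasma membrane and lysosomal amino acid carriers (grey). The coloured points of AML-193 and HNT-34 lie below 0, the grey points spread on both sides, and SLC7A11 is the lowest grey point in each line (-3.17 in HNT-34).

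Regulators of the amino acid deprivation response were lower more often than higher in AML-193, HNT-34 and HL60. Of 22 such genes 21 were tested. In AML-193 11 were lower and 0 higher, in HNT-34 12 and 1, in HL60 14 and 3, and in KG1a 3 and 5. The shares of all genes called lower and higher were 20.3% and 20.7%, 14.8% and 15.4%, 16% and 25.2%, and 3.37% and 6.56% in that order. With the covariate, 9 were lower in AML-193 (1.12% of all genes) and 11 in HL60 (5.66%). ATF4 itself went from 14.03 and 14.01 to 12.74 and 12.73 in AML-193 (-1.28 ± 0.06), and it was also lower in HNT-34 (-0.60), HL60 (-0.39) and KG1a (-0.36), each called with the same SE. CHAC1, a glutathione-degrading enzyme switched on by ATF4, was -1.68, -2.91, -0.87 and -2.04 in AML-193, HNT-34, KG1a and HL60, called lower in each. DDIT3 (CHOP) and TRIB3, both targets of ATF4, rose in KG1a and fell in the other three lines. DDIT3 was lower in AML-193 (-0.66), HNT-34 (-1.41) and HL60 (-0.60) and higher in KG1a (0.44 ± 0.07, adjusted p = 0.0017, limma), and with the covariate its AML-193 value was not called (-0.45, adjusted p = 0.142). TRIB3 was lower in AML-193 (-1.31), HNT-34 (-2.51) and HL60 (-1.01) and higher in KG1a (0.43 ± 0.10, adjusted p = 0.0165, limma).

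MYC did not share a direction across the lines. It was higher in AML-193 (0.59 ± 0.20, adjusted p = 0.0296, limma) and lower in HL60 (-0.81 ± 0.20, adjusted p = 0.0057, limma), and it was not called in HNT-34 (-0.42) or KG1a (-0.11). With the covariate neither call was kept, and the values were -0.20 in AML-193 (adjusted p = 0.844) and -0.30 in HL60 (adjusted p = 0.531). TXNIP, which restrains glucose uptake and is a target of the glucose sensor MLXIP, was called in HL60 alone (-0.21 ± 0.07, adjusted p = 0.0220, limma) and differed by 0.12 or less in the other lines. Of the 14 genes of carrier turnover and the MYC network, 1 was lower and 5 higher in AML-193, 1 and 3 in HNT-34, 0 and 2 in KG1a, and 4 and 3 in HL60. All genes were called lower and higher at 20.3% and 20.7%, 14.8% and 15.4%, 3.37% and 6.56%, and 16% and 25.2% in those lines. SGK1, a kinase that keeps carriers at the surface, was higher in AML-193 (1.64), KG1a (1.03) and HL60 (0.62), the last not called with the covariate (0.43, adjusted p = 0.163).

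Of 24 tested enzymes that use or make amino acids, 11 were lower and 6 higher in AML-193, 11 and 2 in HNT-34, 6 and 2 in KG1a, and 12 and 2 in HL60, against shares of all genes of 20.3% lower and 20.7% higher, 14.8% and 15.4%, 3.37% and 6.56%, and 16% and 25.2%. With the covariate, 3 were lower and 0 higher in AML-193, against 1.12% and 1.54% of all genes. In HL60, 8 were lower and 1 higher with it, against 5.66% and 9.67%. ASNS, asparagine synthetase, was called lower in all 4 lines, at -2.59 ± 0.10 in AML-193, -2.09 in HNT-34, -0.52 in KG1a and -1.29 in HL60. PHGDH, the first enzyme of serine synthesis, was lower in HNT-34 (-2.66 ± 0.13), HL60 (-1.30) and KG1a (-0.87). PSAT1, the next enzyme, was lower in HL60 (-3.61 ± 0.18) and KG1a (-1.07). Both were called higher in AML-193 (0.38 and 0.74), and neither of these calls was kept with the covariate (adjusted p = 0.935 and 0.817). Of 32 tested genes of amino acid sensing by mTORC1, the kinase complex that leucine activates, 6 were lower and 9 higher in AML-193, 5 and 9 in HNT-34, 3 and 4 in KG1a, and 5 and 10 in HL60. The shares of all genes were 20.3% lower and 20.7% higher, 14.8% and 15.4%, 3.37% and 6.56%, and 16% and 25.2%. With the covariate, 0 of the 32 were called in AML-193, where 1.12% of all genes were lower and 1.54% higher. In HL60, 1 was lower and 5 higher with it, against 5.66% and 9.67% of all genes. RPTOR, the scaffold of the complex, was lower in AML-193 (-0.60, not called with the covariate), HNT-34 (-0.33) and KG1a (-0.47), and SESN3 was higher in HNT-34 (0.68), KG1a (1.31) and HL60 (1.16). Of 11 tested mitochondrial carriers, 3 were lower and 3 higher in AML-193 and in HNT-34, 0 and 2 in KG1a, and 2 and 5 in HL60. All genes were called lower and higher at 20.3% and 20.7%, 14.8% and 15.4%, 3.37% and 6.56%, and 16% and 25.2% in those lines. With the covariate, 0 of the 11 were called in AML-193, where 1.12% of all genes were lower and 1.54% higher. In HL60, 0 were lower and 2 higher with it, against 5.66% and 9.67% of all genes. SFXN1, the mitochondrial serine carrier, was lower in AML-193 (-0.78) and higher in HL60 (0.41), neither call kept with the covariate.

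The genes whose values ran most like those of the transporters were ranked by Pearson correlation over the 16 arrays after each line was centred on its own mean. This is a description, since the points share their lines and the treatment. For the mean of the 8 genes, the 3 most alike were PCK2 (0.985), JDP2 (0.982) and SLC7A11 (0.977). For SLC7A5 they were led by AARS1 (0.979), the alanine tRNA synthetase, for SLC3A2 by ATF3 (0.984), for SLC43A1 by TRIB3 (0.982) and for SLC38A1 by TARS1 (0.965), the threonine tRNA synthetase. Second to these came PCK2 (0.9745) for SLC7A5, BATF3 (0.980) for SLC3A2, SPNS3 (0.965) for SLC43A1 and NLRC3 (0.954) for SLC38A1. SLC1A5 was closest to LRRC8D (0.982), CEBPG (0.975) and QSOX2 (0.968). SLC7A1, SLC38A2 and SLC1A4 were led by other kinds of genes, namely PDE7A (0.990), MAML3 (0.981) and ZBTB8A (0.962).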

How the data were processed

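The deposited values are RMA log2 signals per probe set, made by the authors with affy's RMA (versions not given), per the submitters' processing notes. The arrays share 1 distribution (median 6.73, 3.26 to 15.3), so a change common to most genes would not show. Of 54675 probe sets, 41097 had 1 symbol, 1801 several and 11777 none, and 41043 matched by gene ID. The single-symbol probe set with the highest mean stood for each of 19775 genes. A gene was tested if 2 or more of the 16 arrays reached their median. All 8 groups were fitted together in limma 3.58.1 (R 4.3.3; 8 residual and 4.8 prior degrees of freedom), and p-values were adjusted by Benjamini and Hochberg over 14038 genes at 0.05. The fit was tested on simulated data. Having 2 arrays a group limits the precision. Alternatives changed the probe set, filter, normalization, prior, arrays and a 3′ minus 5′ covariate. Genes outside the transporter list were named by size of change among called genes, up to 3 each way per list and line, and ATF4, DDIT3, MYC, TXNIP and SLC7A11 in any case. Transporters and lists were chosen with earlier results of these data known. Promoters are RefSeq (GRCh38.p14), and all 9 genes matched.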

Additional observations from a re-analysis of the deposited data

Results flagged for a closer look

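The AZA effect differed between the 4 lines for 7 of the 8 tested transporters by a moderated F-test over all genes (limma). The adjusted p was 2.56e-08 for SLC1A4, 1.17e-05 for SLC3A2, 2.75e-05 for SLC7A5, 4.22e-05 for SLC43A1, 6.02e-05 for SLC7A1, 7.89e-05 for SLC38A2 and 0.000971 for SLC1A5. Of all genes tested, 57.1% passed the same test. The single gene with called values of both signs was SLC1A4, lower in HNT-34 (-1.65) and higher in KG1a (0.35).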

How the results depend on the processing

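No paired analysis was possible because the labels give no replicate number, and the numbers used here only name arrays. Of 32 values, 12 kept direction and call under each alternative other than another probe set. Without a filter, with quantile normalization again or with an intensity trend, all 32 kept them. With the control 3′ minus 5′ signal as a covariate, the transporters called lower went from 8 to 3 in AML-193. In HL60 they went from 5 to 2. Over all genes the share called lower went from 20.3% to 1.12% in AML-193 and from 16% to 5.66% in HL60. The other carriers went from 5 to 1 lower and 8 to 0 higher in AML-193. In HL60 they went from 5 to 2 lower and 8 to 6 higher. The shares of all genes called higher went from 20.7% to 1.54% in AML-193 and from 25.2% to 9.67% in HL60. In KG1a the 1 lower call became 0 with the probe set of largest variance or only that line's arrays, and the 1 higher call 0 with only that line's arrays. Leaving out 1 array gave 0 to 2 lower and 0 to 1 higher there. For the other carriers, leaving out 1 array gave 2 to 5 lower and 5 to 8 higher in AML-193, 3 to 5 lower in HNT-34 and 1 to 3 higher in KG1a. With only that line's arrays 2 were lower in AML-193. With the mean of probe sets or the largest variance 3 were lower in HNT-34, with the mean of probe sets 5 were higher in HL60, and in KG1a 1 was higher with no filter, either probe set rule, the trend or its own arrays only. Signs turned for SLC7A1 in HL60 (0.13) and SLC38A1 in AML-193 (0.15) with the largest variance, and for SLC38A2 in HL60 with the mean of probe sets (-0.062), the largest variance (-0.14) and the covariate (-0.17). Leaving out 1 array of KG1a gave -0.23 to 0.10 for SLC7A5 and -0.20 to 0.049 for SLC38A2. Other probe sets turned the sign of SLC7A1 in AML-193 (0.11 and 0.49) and HNT-34 (0.11), and of SLC1A4 in AML-193 (0.41). They also turned that of SLC38A1 in AML-193 (0.15 and 0.13), HNT-34 (0.098) and HL60 (0.17). Of these values, only that of SLC1A4 was called. The 0.49 and the HNT-34 value of SLC7A1 came from probe sets averaging below the array median. So did the 0.13, 0.098 and 0.17 of SLC38A1. The mean of probe sets called SLC7A1 (-0.31) and SLC1A4 (-0.21) lower in HL60. The cause was not tested.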
